A study of Mus musculus with 36 samples.

Results

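The 10 genes described here are used as markers of microglia, the resident immune cells of the brain: Cx3cr1, Csf1r, P2ry12, Tmem119, Trem2, Tyrobp, C1qa, C1qb, C1qc and Aif1. They were taken by symbol from a table of 19025 genes measured by RNA-seq in 36 libraries of mouse brain, and all 10 were found. The libraries come from C57 mice aged 6 to 7 weeks and from regions labelled HP, PFc, Nac, STR, SN and VTA, which the labels do not spell out. In each region 3 libraries are labelled wild type (WT) and 3 are labelled knock-in (KI); the series title describes a synonymous mutation of Maoa, the gene of monoamine oxidase A, and the labels give no further allele, promoter or agent. The question addressed is how the microglial genes compare between KI and WT within each region and between the regions of each genotype.

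Microglia sense their surroundings through surface receptors that few other brain cells carry. Cx3cr1 binds the neuronal chemokine Cx3cl1, Csf1r binds the survival factors Csf1 and Il34, P2ry12 senses nucleotides released by damaged cells, and Tmem119 is a membrane protein used to tell microglia from other macrophages. Trem2 binds lipids and signals through the adaptor Tyrobp, C1qa, C1qb and C1qc encode the chains of complement C1q, which tags material for removal, and Aif1 encodes the calcium-binding protein Iba1. Tissue RNA cannot tell fewer cells of a type from less RNA per cell, and this holds for every level given here.

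The promoters of the genes are shown because their levels moved in 2 sets, described further on, and because the transcription factor PU.1, which directs the microglial programme, is known to bind the PU box. RefSeq promoter windows (GRCm38.p6), looked up by symbol, were used for 6 of the 10 genes. The 250 bases before the start were searched for GAGGAA on both strands, the reverse strand reading TTCCTC. No window of Csf1r, Tmem119, Tyrobp or C1qa was searched, so the windows cannot compare the 2 sets. Capitals mark a match, and each sequence runs 5′ to 3′ on the strand of the gene.
C1qb, chr4:136886201-136886450, minus strand: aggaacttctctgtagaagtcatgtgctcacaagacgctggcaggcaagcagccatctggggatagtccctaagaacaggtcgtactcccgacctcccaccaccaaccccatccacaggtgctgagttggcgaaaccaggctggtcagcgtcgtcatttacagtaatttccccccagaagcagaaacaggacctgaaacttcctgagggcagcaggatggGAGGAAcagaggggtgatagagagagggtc
C1qc, chr4:136892915-136893164, minus strand: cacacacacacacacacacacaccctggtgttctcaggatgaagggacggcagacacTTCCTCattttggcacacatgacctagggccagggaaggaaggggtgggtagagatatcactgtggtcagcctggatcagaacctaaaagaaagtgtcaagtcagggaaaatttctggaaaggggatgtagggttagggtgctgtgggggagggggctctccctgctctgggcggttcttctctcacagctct
Trem2, chr17:48346151-48346400, plus strand: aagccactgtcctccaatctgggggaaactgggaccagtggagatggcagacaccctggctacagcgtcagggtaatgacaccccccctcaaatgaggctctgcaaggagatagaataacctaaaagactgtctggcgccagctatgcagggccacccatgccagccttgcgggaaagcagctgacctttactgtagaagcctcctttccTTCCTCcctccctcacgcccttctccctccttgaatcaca
Cx3cr1, chr9:120068297-120068546, minus strand: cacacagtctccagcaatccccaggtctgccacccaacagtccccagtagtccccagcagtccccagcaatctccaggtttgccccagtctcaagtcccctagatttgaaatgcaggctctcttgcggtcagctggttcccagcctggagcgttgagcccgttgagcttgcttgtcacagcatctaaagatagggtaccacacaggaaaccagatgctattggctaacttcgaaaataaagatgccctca
P2ry12, chr3:59262986-59263235, minus strand: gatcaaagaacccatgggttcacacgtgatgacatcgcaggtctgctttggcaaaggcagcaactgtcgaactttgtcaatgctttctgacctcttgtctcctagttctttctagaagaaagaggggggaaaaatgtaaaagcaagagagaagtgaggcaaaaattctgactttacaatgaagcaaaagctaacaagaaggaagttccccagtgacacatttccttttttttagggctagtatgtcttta
A match was present in 4 of the 6 windows (C1qb, C1qc, Trem2 and Aif1) and in 23.3% of all 32851 RefSeq promoter windows of this length. The matches began 30 bases before the start in C1qb, 193 in C1qc, 40 in Trem2 and 7 in Aif1, counted from the start the promoter table uses. For C1qc and Aif1 that start lies inside the span annotated for the gene, so part of the window, and for Aif1 the match, is within the gene. A match describes these letters only.

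In the RefSeq annotation of GRCm38.p6 the receptor genes lie at 120048683 to 120068296 on chromosome 9 (Cx3cr1, gene ID 13051), 61105572 to 61131139 on chromosome 18 (Csf1r, 12978), 59216271 to 59262985 on chromosome 3 (P2ry12, 70839) and 113793729 to 113800396 on chromosome 5 (Tmem119, 231633). Trem2 (83433) and Aif1 (11629) are on chromosome 17, at 48346401 to 48352276 and 35170986 to 35176083. Tyrobp (22177) is on chromosome 7 at 30413782 to 30417582, and C1qb (12260), C1qc (12262) and C1qa (12259) are neighbours on chromosome 4.

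All 10 genes were well above the detection limit: the lowest count in any library was 60, for Aif1, and the highest 3678, for Csf1r, and each gene passed edgeR's filter on low counts in every comparison. Per length, in the deposited TPM (a level corrected for transcript length and library size), the C1q chains were the most abundant in the 18 WT libraries, with C1qa at 146.3 ± 40.3 TPM, C1qb at 143.7 ± 39.9 TPM and C1qc at 129.1 ± 34.9 TPM (SD, n = 18). Tyrobp followed at 88.9 ± 25.7 TPM and Csf1r at 59.6 ± 18.4 TPM. The WT means of P2ry12, Cx3cr1, Trem2, Tmem119 and Aif1 were 40.6, 30.2, 30.03, 30.03 and 19.1 TPM. C1qa, C1qb and C1qc, which lie side by side on chromosome 4 between 136880126 and 136898844, were measured in similar proportions: over the libraries of both genotypes the CPM ratio of C1qa to C1qb ran from 0.909 to 1.17 and that of C1qc to C1qb from 0.717 to 1.10.

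The deposited counts of a library added up to between 15145623 and 18863508, with every KI total below every WT total in each region except Nac. Maoa itself averaged 35.2 to 72.5 CPM (counts scaled to library size) over the WT regions and 42.1 to 88.6 CPM over the KI regions; since a synonymous change need not alter a count, it does not check the labels. Marker lists of the regions went against the label in 8 libraries, WT Nac 2, WT VTA 3, KI HP 2, KI Nac 1, KI Nac 2, KI SN 1, KI SN 2 and KI STR 3. The list of striatal genes, for example, summed to 6205 CPM in KI HP 2 against 180.3 to 260.8 CPM in the other HP libraries, and to 4282 CPM in WT VTA 3 against 312.4 CPM in WT Nac 2. KI PFc 1 kept its cortical genes but had striatal genes at 2103 CPM. Libraries are called here by their labels, and the results that rest on these libraries are given with and without them. The labels do not say that libraries came from separate animals, so p-values here reflect library-to-library variation, part of which may be technical.

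**Figure D1:**
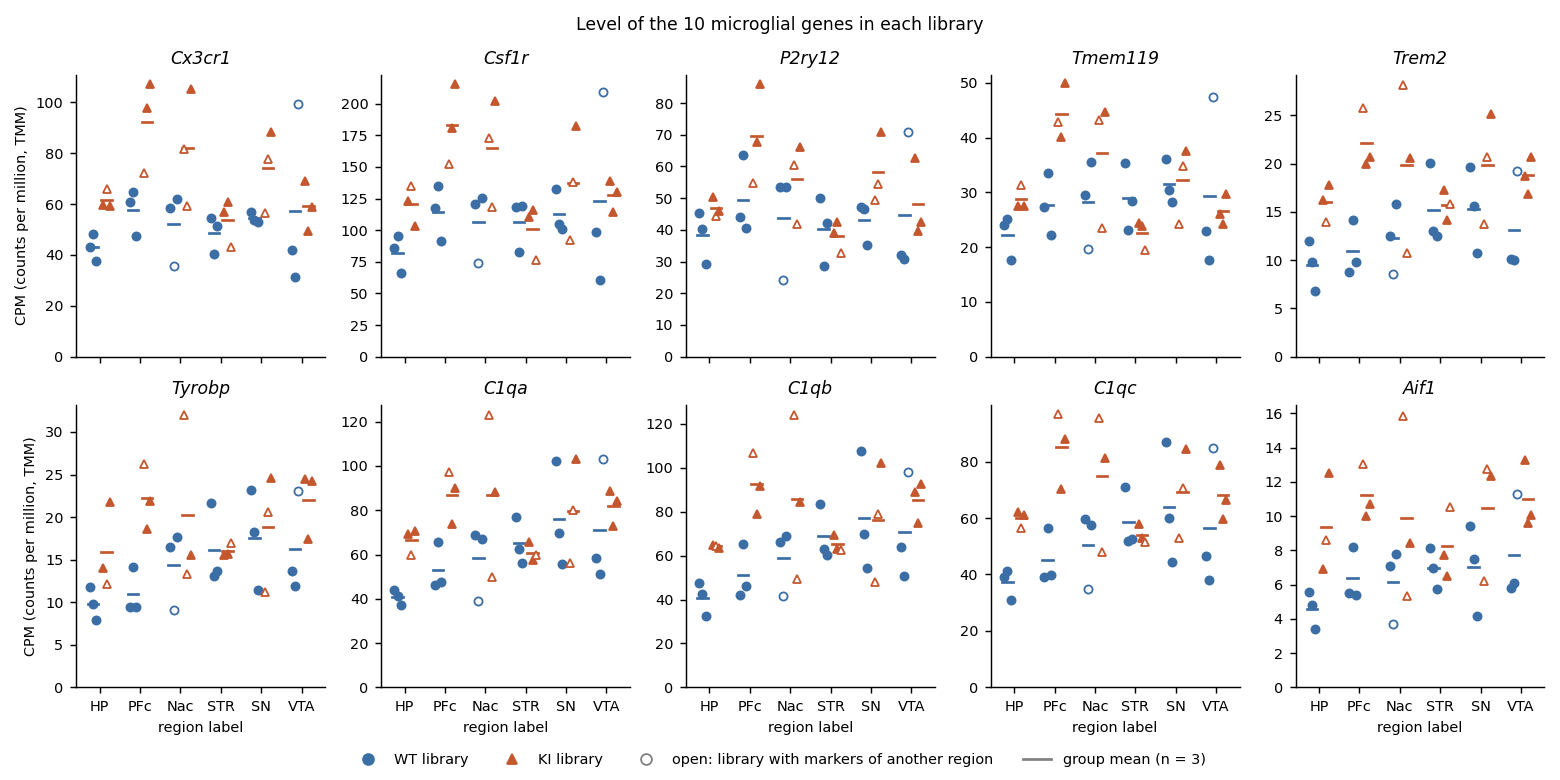
Level of each of the 10 microglial genes in TMM-scaled CPM (linear axis from 0) by region label, with WT libraries as circles, KI libraries as triangles and bars at the mean of 3 libraries. Open symbols are the 8 libraries with markers of another region and KI PFc 1; KI symbols sit above WT symbols for 9 of 10 genes in HP and in PFc, and WT VTA 3 is the highest WT library of its region for all 10.

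In HP and PFc the microglial genes had higher means in KI, for all 10 genes in both regions, where 50.2% and 53.4% of all tested genes had. The log2 fold changes ran from 0.30 to 1.03 in HP (median 0.67) and from 0.51 to 1.04 in PFc (median 0.79), while the median of all genes was 0.00 in HP and 0.03 in PFc. In both regions all 3 KI libraries lay above all 3 WT libraries for 9 of the 10 genes, P2ry12 being the exception; this held for 11.9% of all genes in HP and 12.3% in PFc. None of the 10 passed edgeR's quasi-likelihood test after Benjamini-Hochberg adjustment over all genes, which called 0% of genes higher in either region; at an unadjusted p under 0.05 it held 8 in HP and 9 in PFc, against 8.38% and 9.61% of all genes. DESeq2 called 3 of the 10 in HP (1.75% of all genes) and 8 in PFc (1.68%), all higher in KI. The authors' deposited table lists 3 of the 10 in HP and 5 in PFc at a q-value under 0.05, and 0 in the other 4 regions. The share of all genes under that q-value is not given here, so these counts have no background to be read against.

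The fractalkine receptor gene Cx3cr1 stood at 43.2, 48.3 and 37.4 CPM in the WT HP libraries and at 59.7, 66.1 and 59.1 CPM in the KI HP libraries. In PFc it stood at 60.8, 64.7 and 47.5 CPM in WT and at 72.1, 97.8 and 107 CPM in KI. The genotypes did not overlap in either region, and KI PFc 1, the library with striatal markers, was the lowest of its group. The log2 fold change was 0.52 in HP (SE 0.131; adjusted p = 0.30 by edgeR and 0.0582 by DESeq2) and 0.70 in PFc (SE 0.188; adjusted p = 0.215 and 0.0503). Without KI PFc 1 it was 0.84 in PFc and passed edgeR (SE 0.136; adjusted p = 0.0266).

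Csf1r, the receptor on which microglia depend for survival, read 85.7, 95.1 and 66.3 CPM in WT HP and 123.5, 135 and 104 CPM in KI HP. In PFc the WT libraries held 117, 135 and 91.8 CPM and the KI libraries 153, 181 and 215 CPM. Each KI library was above each WT library of its region. The log2 fold change was 0.55 in HP (SE 0.173; DESeq2 adjusted p = 0.124) and 0.69 in PFc (SE 0.189; DESeq2 adjusted p = 0.0461), and edgeR gave adjusted p = 0.305 and 0.215. Its ligand genes and the ligand of Cx3cr1 are in a list of partners described below.

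The nucleotide receptor gene P2ry12 showed the smallest differences of the 10 in both regions. It read 45.4, 40.3 and 29.1 CPM in WT HP and 50.5, 44.5 and 46.0 CPM in KI HP. In PFc it read 44.1, 63.7 and 40.5 CPM in WT and 54.8, 67.7 and 85.9 CPM in KI. In each region 1 KI library was below the highest WT library, KI HP 2 and KI PFc 1. The log2 fold change was 0.30 in HP (95% interval −0.12 to 0.72) and 0.51 in PFc (95% interval −0.02 to 1.03), with adjusted p of 0.463 and 0.291 by edgeR and 0.528 and 0.252 by DESeq2.

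Tmem119, the membrane marker that sets microglia apart from blood-borne macrophages, read 24.0, 25.2 and 17.6 CPM in WT HP and 27.4, 31.4 and 27.5 CPM in KI HP. In PFc the readings were 27.4, 33.5 and 22.3 CPM in WT and 42.9, 40.1 and 49.9 CPM in KI. The PFc genotypes were separated by a wider gap than those of HP, where the interval of the difference included 0. The log2 fold change was 0.37 in HP (95% interval −0.02 to 0.77; DESeq2 adjusted p = 0.383) and 0.69 in PFc (SE 0.175; DESeq2 adjusted p = 0.0412). By edgeR the adjusted p was 0.37 in HP and 0.215 in PFc.

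Trem2, the lipid-sensing receptor, read 12.02, 9.79 and 6.83 CPM in WT HP against 16.3, 14.004 and 17.8 CPM in KI HP. In PFc it read 8.75, 14.2 and 9.83 CPM in WT against 25.8, 19.9 and 20.6 CPM in KI. Its PFc difference was the largest of the 10 genes in that region, at a log2 fold change of 1.04 (SE 0.214; adjusted p = 0.215 by edgeR and 0.00524 by DESeq2). In HP the log2 fold change was 0.75 (SE 0.225; adjusted p = 0.305 by edgeR and 0.116 by DESeq2).

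Tyrobp, the adaptor through which Trem2 signals, ran at 11.8, 9.73 and 7.91 CPM in WT HP and 14.03, 12.1 and 21.7 CPM in KI HP. In PFc it ran at 9.47, 14.1 and 9.44 CPM in WT and 26.2, 18.7 and 21.8 CPM in KI. KI HP 3 was the highest HP library and the other KI HP libraries lay just above the highest WT library, whereas in PFc the genotypes were further apart. The log2 fold change was 0.70 in HP (SE 0.259; DESeq2 adjusted p = 0.214) and 1.03 in PFc (SE 0.214; DESeq2 adjusted p = 0.00548), and edgeR gave adjusted p = 0.327 and 0.215.

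The complement gene C1qa had 44.2, 41.0 and 37.0 CPM in WT HP and 69.2, 59.97 and 70.8 CPM in KI HP. C1qb had 47.5, 42.5 and 32.7 CPM in WT HP and 64.7, 64.5 and 63.6 CPM in KI HP. C1qc had 39.2, 41.3 and 31.1 CPM in WT HP and 62.2, 56.5 and 61.0 CPM in KI HP. The KI values of each chain were close together and stood well clear of the WT values. These 3 chains were the members that DESeq2 called in HP, at log2 fold changes of 0.71 for C1qa (adjusted p = 0.00241), 0.65 for C1qb (0.0334) and 0.69 for C1qc (0.0118), while edgeR gave an adjusted p of 0.30 for each. Without KI HP 2, edgeR called C1qa (0.79, SE 0.117; adjusted p = 0.0184) and C1qc (0.74, SE 0.134; adjusted p = 0.0396), where it called 0.322% of all genes higher.

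In PFc C1qa had 46.1, 65.5 and 47.6 CPM in WT and 97.3, 73.7 and 90.0 CPM in KI. C1qb had 42.2, 65.3 and 46.1 CPM in WT and 107, 79.2 and 91.7 CPM in KI. C1qc had 39.1, 56.6 and 39.8 CPM in WT and 96.7, 70.2 and 88.1 CPM in KI. WT PFc 2 was the highest WT library and KI PFc 2 the lowest KI library for all 3 chains, and the groups did not overlap. The log2 fold changes were 0.73, 0.87 and 0.93 (SE 0.179, 0.198 and 0.192), with DESeq2 adjusted p of 0.0265, 0.0119 and 0.00478 and an edgeR adjusted p of 0.215 for each.

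Aif1, the gene of Iba1, was the least abundant of the 10. It read 5.57, 4.78 and 3.39 CPM in WT HP and 6.92, 8.58 and 12.52 CPM in KI HP. In PFc it read 5.49, 8.21 and 5.37 CPM in WT and 13.1, 9.99 and 10.7 CPM in KI. The HP difference was the largest of the 10 genes there, a log2 fold change of 1.03 with a wide interval of 0.33 to 1.72 (adjusted p = 0.303 by edgeR and 0.0742 by DESeq2), and the PFc difference was 0.84 (SE 0.217; adjusted p = 0.215 by edgeR and 0.046 by DESeq2). The transcript table lists each of 3 Aif1 transcripts in 4 copies whose counts are equal to within 0.01, and the share of the counts placed on the most abundant of them, NM_019467, ran from 0 to 100% between libraries, so the gene total is used here and the transcript values are not compared.

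Leaving out KI PFc 1 changed the PFc result of edgeR from 0 to 7 of the 10 genes called, where 3.48% of all genes were called higher. The 7 were Cx3cr1, Csf1r, Tmem119, Trem2, Tyrobp, C1qb and C1qc, with adjusted p from 0.0266 to 0.0499. All 10 genes still had higher KI means (49% of all genes), and their median log2 fold change was 0.78 instead of 0.79. In HP, leaving out KI HP 2 changed the median from 0.67 to 0.70.

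**Figure D2:**
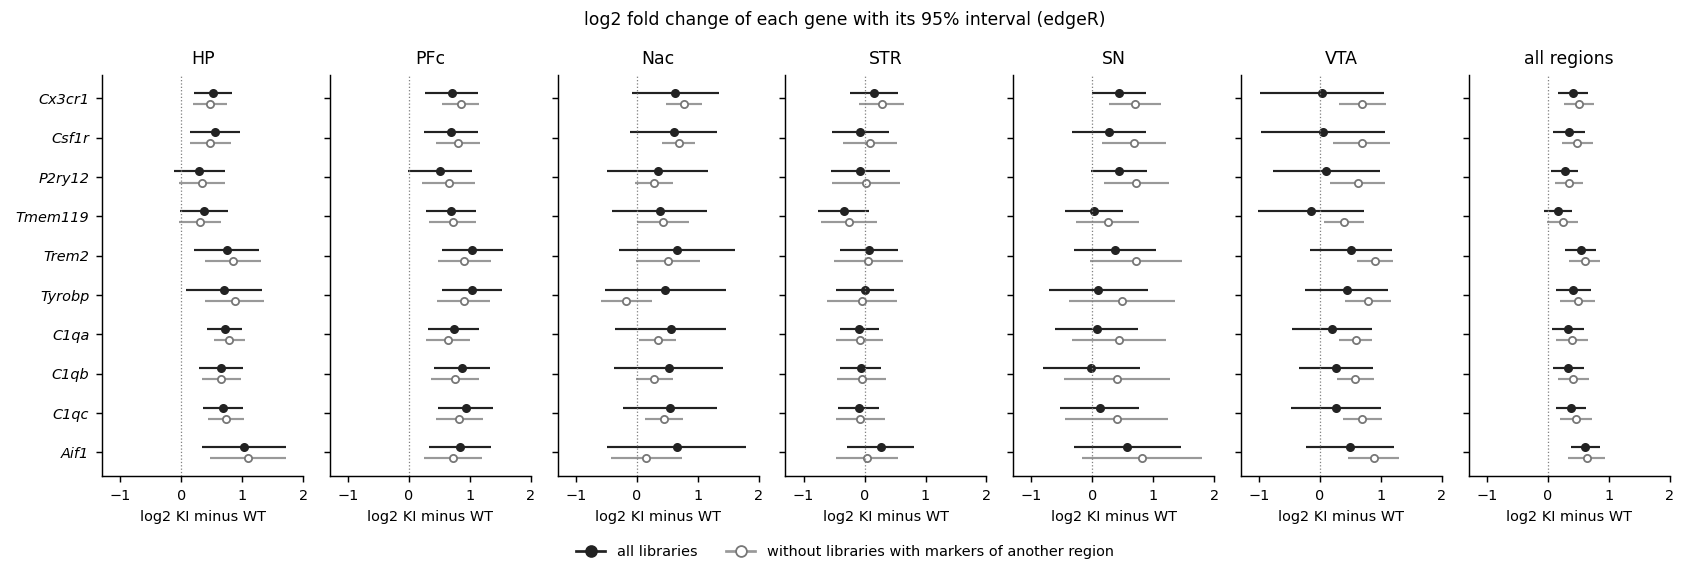
log2 fold change of each microglial gene, KI minus WT, with its 95% interval from edgeR, in each region and in counts summed over all regions. Filled points use all libraries and open points leave out libraries with markers of another region (in PFc, KI PFc 1); points lie right of 0 for all 10 genes in HP and PFc under both, on both sides of 0 in STR, and move right in VTA once WT VTA 3 is left out.

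In Nac all 10 genes again had higher KI means (53.6% of all genes did), at log2 fold changes of 0.34 to 0.66 with a median of 0.55, but the libraries of both genotypes were widely spread. Cx3cr1 ran at 58.6, 35.6 and 61.8 CPM in WT and at 81.5, 59.3 and 105 CPM in KI. C1qa ran at 68.9, 38.9 and 67.1 CPM in WT and at 123.1, 50.03 and 88.1 CPM in KI. WT Nac 2 was the lowest WT library and KI Nac 2 the lowest KI library for all 10 genes, and both carried markers of another region. The genotypes overlapped for all 10 genes, whereas 2.53% of all genes had every KI library above every WT library. edgeR called 0 of the 10 and DESeq2 0 (0.00561% of all genes higher), and 0 had an unadjusted p under 0.05 by edgeR (0.474% of all genes). Without the 3 libraries that carried other markers, 2 WT libraries and 1 KI library remained; with the lone KI library assumed to vary like the WT libraries, the median was 0.38 and Tyrobp had a lower KI value (log2 fold change −0.17, SE 0.153).

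In STR the genes did not differ in a common direction: 4 of 10 had higher KI means, against 51% of all genes, and the median log2 fold change was −0.07. Cx3cr1 read 54.5, 40.5 and 51.3 CPM in WT and 57.0, 60.7 and 42.9 CPM in KI. C1qa read 77.2, 62.5 and 56.1 CPM in WT and 65.5, 57.4 and 59.6 CPM in KI. Tmem119 had the lowest log2 fold change of the 10. It read 35.4, 23.2 and 28.5 CPM in WT and 24.5, 23.9 and 19.5 CPM in KI. Its log2 fold change was −0.34 (95% interval −0.76 to 0.07; edgeR adjusted p = 0.53), and the genotypes overlapped for all 10 genes, whereas 8.13% of all genes had every KI library above every WT library. Neither edgeR nor DESeq2 (0.869% of all genes higher) called any of the 10 in STR, and 0 had an unadjusted p under 0.05 by edgeR (6.19% of all genes). Without KI STR 3, which carried markers of another region, the median was −0.01, 5 of 10 genes had higher KI means and edgeR called 0.

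In SN 9 of 10 genes had higher KI means (51.7% of all genes), with a median log2 fold change of 0.20. Csf1r stood at 133, 105 and 100.97 CPM in WT and at 92.1, 138 and 182 CPM in KI. C1qb, the exception, stood at 107, 69.7 and 54.6 CPM in WT and at 47.9, 78.9 and 102 CPM in KI (log2 fold change −0.02, 95% interval −0.82 to 0.78). KI SN 1 was the lowest KI library for all 10 genes and KI SN 3 the highest for 9. Only P2ry12 had all KI libraries above all WT libraries, at 47.3, 46.5 and 35.2 CPM in WT and 49.4, 54.4 and 70.9 CPM in KI, a pattern found in 11.2% of all genes. edgeR called 0 of the 10 and DESeq2 0 (3.46% of all genes higher), and 0 had an unadjusted p under 0.05 by edgeR (9.27% of all genes). KI SN 1 and KI SN 2 carried markers of other regions. KI SN 3 kept its midbrain genes, but its striatal genes had a mean log2 level of 5.2, against 3.6 to 3.72 in the WT SN libraries. WT SN 2 also kept its midbrain genes, but its cortical genes had a mean log2 level of 5.08. That level was 3.51 in WT SN 1 and 3.21 in WT SN 3. With KI SN 3 alone against the 3 WT libraries the median was 0.59 and all 10 genes were higher. Of 13 striatal genes 12 were higher in that fit, with a median log2 fold change of 1.85. The spread of that fit comes from the WT libraries only, with the lone KI library assumed to vary like them, and edgeR called 0 of the 10 and 0.0067% of all genes higher.

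In VTA 9 of 10 genes had higher KI means (48.9% of all genes), with a median log2 fold change of 0.23, and 1 WT library decided the size. Cx3cr1 had 41.8, 31.4 and 99.2 CPM in WT VTA 1, 2 and 3, and 68.9, 49.5 and 59.0 CPM in KI. C1qa had 58.6, 51.1 and 103 CPM in WT and 88.8, 72.9 and 84.3 CPM in KI. Aif1 had 5.82, 6.11 and 11.3 CPM in WT and 13.3, 9.59 and 10.1 CPM in KI. For all 10 genes WT VTA 3, the library with striatal in place of midbrain markers, was the highest WT library, and the genotypes overlapped (11.3% of all genes had every KI library higher). With all libraries edgeR called 0 of the 10 and DESeq2 0 (0.813% of all genes higher), and 0 had an unadjusted p under 0.05 by edgeR (6.03% of all genes). Without WT VTA 3 the median log2 fold change was 0.69 and edgeR called 7 of the 10 higher (4.61% of all genes): Cx3cr1, Trem2, Tyrobp, the 3 C1q chains and Aif1. Their adjusted p ran from 0.0187 for Trem2 (0.90, SE 0.133) to 0.047 for Cx3cr1 (0.69, SE 0.17), on 2 WT libraries. Markers of other cell types in the same fit were as follows: 18 of 18 endothelial and pericyte genes had higher KI means (10 called by edgeR), 14 of 15 oligodendrocyte genes (8 called) and 14 of 14 astrocyte genes (6 called), while 13 of 15 neuronal genes had lower KI means (4 called). Their part in the microglial differences was not tested.

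Whether the KI difference of a gene varied with the region was tested as an interaction over all 36 libraries. edgeR called 0 of the 10 genes and 0% of all genes, with adjusted p from 0.578 for C1qc and Tmem119 to 0.879 for P2ry12. By edgeR 0 of the 10 had an unadjusted p under 0.05, against 1329 of all 15367 genes. DESeq2 also called 0 of the 10, against 33 of 18951 genes. The lack of a common direction in STR was therefore not shown to differ from the other regions.

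Counts summed over the 6 regions for each genotype and title number gave 3 WT and 3 KI sums. All 10 genes had higher KI means (49.2% of all genes), with a median log2 fold change of 0.36. Aif1 had sums of 6.96, 6.21 and 6.32 CPM in WT and 10.3, 8.74 and 10.7 CPM in KI, the largest difference at 0.61 (SE 0.103; adjusted p = 0.0575 by edgeR and 4.59e-05 by DESeq2). Trem2 had 13.9, 11.9 and 12.6 CPM in WT and 19.7, 16.0 and 20.02 CPM in KI (0.54, SE 0.109; adjusted p = 0.0727 by edgeR and 0.000702 by DESeq2). Tmem119 had the smallest difference, with 29.4, 24.8 and 30.2 CPM in WT and 30.9, 29.4 and 34.5 CPM in KI (0.17, 95% interval −0.06 to 0.40). All KI sums lay above all WT sums for 7 of the 10 genes, against 11.9% of all genes, the others being C1qa, C1qb and Tmem119. edgeR called 0 of the 10 (0% of all genes higher) although 9 had an unadjusted p under 0.05 (9.36% of all genes), and DESeq2 called 6 (4.18%): Cx3cr1, Trem2, Csf1r, C1qc, Tyrobp and Aif1. With region and genotype as terms over the 36 libraries taken as independent, edgeR called 5 of the 10 (4.91% of all genes higher); over 28 libraries, without the 8 that went against their label but with KI PFc 1, it called all 10 (9.03% of all genes higher), with log2 fold changes from 0.32 for Tmem119 to 0.70 for Trem2. In the sums 76 of 76 cytosolic ribosomal protein genes also had higher KI means (median 0.35, 71 called by DESeq2), as did 18 of 18 endothelial and pericyte genes (0.35, 10 called) and 11 of 11 border macrophage genes (0.54, 4 called), and 13 of 15 neuronal genes had lower KI means (−0.24, 5 called). Their part in the microglial differences was not tested.

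Between regions the WT libraries had their lowest mean in HP for all 10 genes. The highest mean was in SN for C1qa, C1qb, C1qc, Trem2, Tyrobp and Tmem119, in PFc for Cx3cr1 and P2ry12, and in VTA for Csf1r and Aif1. Both ends of this order changed without WT Nac 2 and WT VTA 3; in WT VTA 3 Csf1r, for example, stood at 209.6 CPM against 98.8 and 60.5 CPM in the other WT VTA libraries. In the fit without these libraries HP was the lowest region for 6 genes (the 3 C1q chains, Trem2, Tyrobp and Aif1) and VTA for 4 (Cx3cr1, Csf1r, P2ry12 and Tmem119), with SN the highest for 5 (the 3 C1q chains, Trem2 and Tyrobp) and Nac for the others. Cx3cr1 was then lower in VTA than in the mean of the other regions (log2 difference −0.52, SE 0.143, edgeR adjusted p = 0.0106). Of all genes 19.5% were lower in VTA in that fit. With all libraries the ratio of the highest to the lowest regional mean ran from 1.29 for P2ry12 to 1.89 for C1qb. Neighbouring regions in this order overlapped for all genes except at 1 step of C1qa, and the F test over the 18 WT libraries called 0 of the 10 with edgeR and 0 with DESeq2 (0 at an unadjusted p under 0.05 by edgeR), while edgeR called 48% of all genes. Against the mean of the other 5 regions, WT HP was lower for C1qa (log2 difference −0.66, SE 0.227; adjusted p = 0.0343) and C1qb (−0.67, SE 0.232; adjusted p = 0.0359), with 16.7% of all genes lower in HP. Without WT Nac 2 and WT VTA 3 the F test called 5 of the 10, C1qa, C1qb, C1qc, Tyrobp and Cx3cr1, against 70% of all genes.

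In KI the order was another: PFc had the highest mean for 9 of the 10 genes, with C1qa highest in Nac, and STR had the lowest for 8, with C1qb and Tyrobp lowest in HP. The ratio of the highest to the lowest mean ran from 1.36 for Aif1 to 1.96 for Tmem119. The F test over the 18 KI libraries called Tmem119 (edgeR adjusted p = 0.0464; 12.5% of all genes called), which was higher in PFc than in the mean of the other regions (log2 difference 0.62, SE 0.159; adjusted p = 0.0243; 6.43% of all genes higher). DESeq2 called Cx3cr1, P2ry12 and Tmem119, and 23% of all genes. Without the 6 KI libraries that carried markers of another region, edgeR called 6 of the 10, Cx3cr1, Csf1r, C1qa, C1qb, C1qc and Tmem119, against 50.3% of all genes. That fit holds 12 libraries, with 1 each in Nac and SN. In it PFc was the highest region for C1qc alone, Nac for Cx3cr1, Csf1r and Tmem119 and SN for the other 6 genes, while STR was the lowest for 9. The log2 difference of Tmem119 from the mean of the other regions was 0.52 in PFc (SE 0.0953) and 0.53 in Nac (SE 0.143). It was −0.57 in STR (SE 0.118) and −0.39 in VTA (SE 0.0999).

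Across libraries the 10 genes moved as 2 sets. The median Pearson r of log2 CPM over 36 libraries was 0.932 among Trem2, Tyrobp, C1qa, C1qb, C1qc and Aif1 (15 pairs), 0.901 among Cx3cr1, Csf1r, P2ry12 and Tmem119 (6 pairs) and 0.716 between the sets (24 pairs). The lowest r was 0.614, for Cx3cr1 and Tyrobp, and the highest 0.978, for C1qa and C1qb. With the mean of each genotype and region removed the medians were 0.911, 0.899 and 0.718. The sets were split at a longest coding transcript of 1500 bases, after the values were seen, so no test is given. Libraries also share their depth and dissection across genes. The longest coding transcript has 597 to 1203 bases in the first set (Tyrobp to C1qc) and 2242 to 4701 bases in the second (Tmem119 to Csf1r). That difference in length comes from the split itself.

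**Figure D3:**
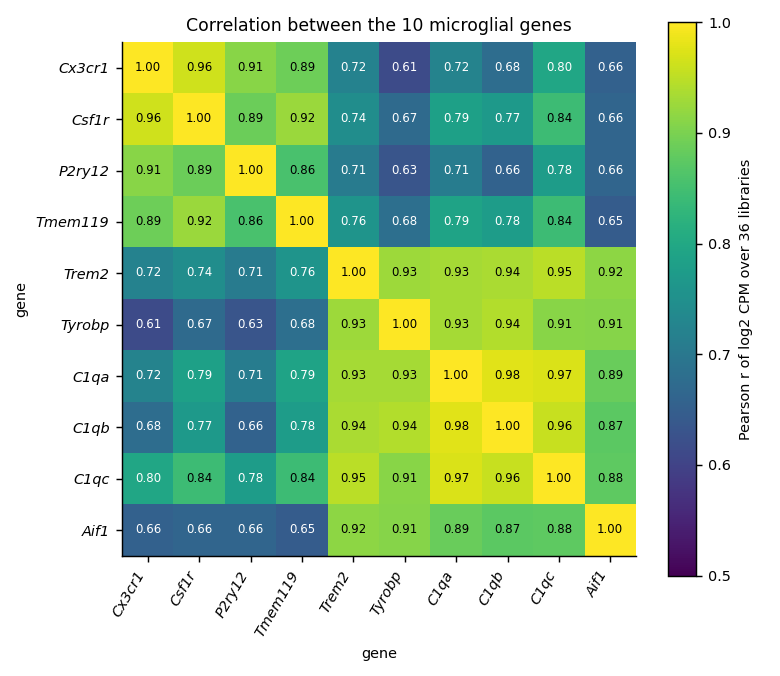
Pearson r between the log2 CPM of each pair of microglial genes over the 36 libraries, with genes on both axes and the value in each cell. Cx3cr1, Csf1r, P2ry12 and Tmem119 form a block (median 0.901) and Trem2, Tyrobp, the C1q chains and Aif1 another (median 0.932), with lower values between them (median 0.716).

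Length moved with genotype over all genes in some regions. In PFc the median log2 fold change of all tested genes fell from 0.41 for transcripts of up to 1000 bases to −0.19 for the longest class, in HP from 0.22 to −0.07 and in VTA from 0.16 to −0.10. In Nac the same 2 classes had medians of 0.01 and 0.04. The short set of microglial genes had a median log2 fold change of 0.70 in HP and 0.90 in PFc, and the long set 0.45 and 0.69. Measured from the median of their length class, the short set stood 0.58 higher in HP and 0.61 in PFc and the long set 0.46 and 0.68, and all 10 genes were above their class in HP, PFc and Nac. In VTA the short set had a median log2 fold change of 0.35 and the long set 0.04. Measured from their class these were 0.22 and 0.09, and Tmem119 was at −0.149. Above their class were 3 of 6 short and 1 of 4 long genes in STR, and 5 of 6 and 4 of 4 in SN. The part of length in the differences between genotypes was not tested.

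**Figure D4:**
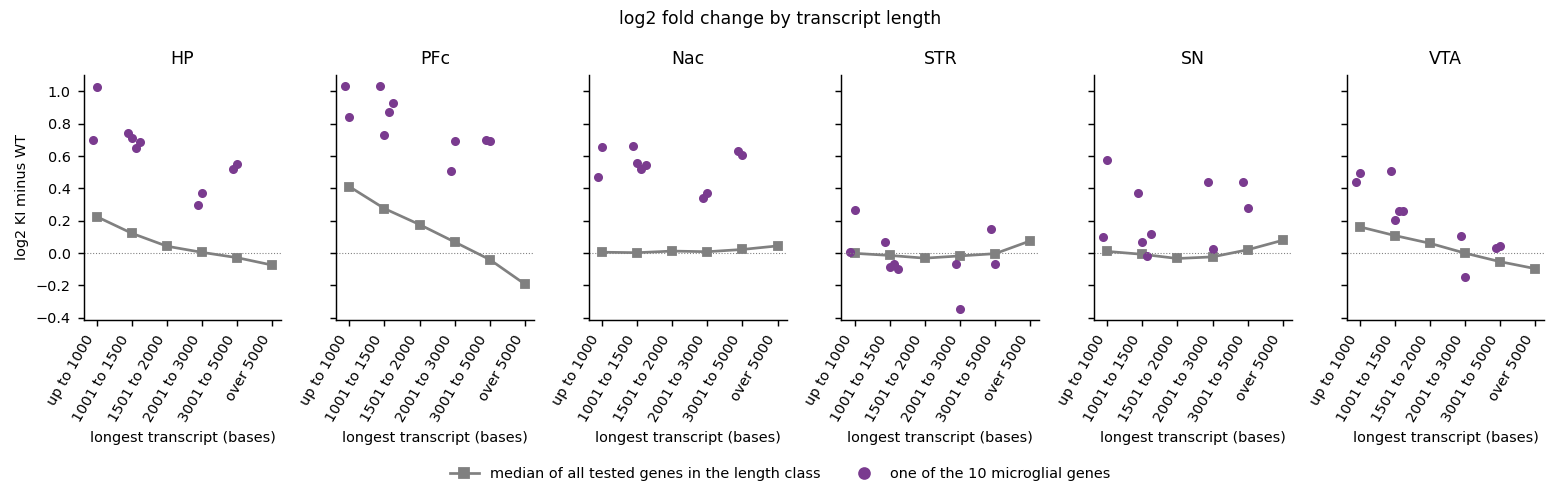
log2 fold change, KI minus WT, against the length class of the longest coding transcript in bases, by region. Squares joined by lines are the median of all tested genes in a class and dots are the 10 microglial genes. The line falls with length in HP, PFc and VTA. The dots lie above it for all 10 genes in HP, PFc and Nac, and on both sides of it in STR, SN and VTA.

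Among the genes whose pattern over the 36 libraries was most like the mean of the 10 were Laptm5 (Pearson r = 0.954), Spi1 (0.945), Olfml3 (0.944), Fcgr3 (0.941), Siglech (0.936), Fcer1g (0.928) and Ncf1 (0.923). Of those named, Fcgr3 and Ncf1 are not in, and the others are in, a list of 36 other microglial genes chosen beside the members. Spi1 encodes PU.1, the factor whose binding letters were searched for in the promoters.

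The other 36 microglial genes were placed like the 10. Of all genes DESeq2 called 1.75% higher in HP and 1.68% in PFc, and edgeR called 3.48% higher in PFc without KI PFc 1. In HP 36 of 36 had higher KI means (median log2 fold change 0.53), DESeq2 called 2 (its own log2 fold changes are given), the membrane protein gene Laptm5 (0.70, adjusted p = 0.0214) and the protease gene Ctss (0.54, adjusted p = 0.0263), and edgeR called 0. In PFc 36 of 36 were higher (median 0.69) and DESeq2 called 12, among them the tetraspanin gene Cd37 (1.34, adjusted p = 0.0137), the prostaglandin synthase gene Hpgds (1.02, adjusted p = 0.0137) and Fcer1g (0.97, adjusted p = 0.00749); edgeR called 0, and 13 without KI PFc 1. The median in the remaining regions was 0.45 (Nac), 0.08 (STR), 0.30 (SN) and 0.17 (VTA). Without the libraries with other markers it was 0.33 (Nac), 0.13 (STR), 0.61 (SN) and 0.67 (VTA). In VTA 36 of 36 were then higher and edgeR called 17, where it called 4.61% of all genes higher. Genes linked with activated microglia had medians of 0.65 in HP (16 tested) and 0.49 in PFc (17 tested), where DESeq2 called 3 and 4 of them higher. By DESeq2's log2 fold changes the called genes were led in HP by Axl (0.71), Apoe (0.72) and Cd63 (0.60). In PFc they were led by Fth1 (0.997), Cd14 (0.94) and Apoe (0.80). Astrocytes and other cells also make Apoe and Fth1. Of the activated list 16 of 20 tested had higher KI means in VTA (median 0.42, 1 called higher by DESeq2). The same held for 17 of 19 in Nac (median 0.39, 0 called). The medians were 0.04 in STR and 0.00 in SN (19 tested in each). Without the libraries with other markers the median was 0.66 for VTA and 0.08 for STR. It was 0.41 for SN and 0.23 for Nac, each with a lone KI library. Spp1, the gene of osteopontin, was called lower by DESeq2 in STR (−0.92, adjusted p = 0.0112) and SN (−3.77, adjusted p = 0.00397), and Lpl, the gene of lipoprotein lipase, higher in SN (2.72, adjusted p = 0.000236), where 2 of the 3 KI libraries carried markers of other regions. The cytokine genes Il1b and Tnf were listed at 0 counts in 8 and 16 of the 36 libraries and did not exceed 0.503 and 1.08 CPM.

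The ligands and partners of the receptors and of C1q did not share the direction. Of 15 tested in HP 9 had higher KI means (median 0.12) and of 15 tested in PFc 7 had (median −0.07), with −0.10 in HP without KI HP 2; edgeR and DESeq2 called 0 in both regions. Cx3cl1, the ligand of Cx3cr1, had a log2 fold change of 0.12 in HP (SE 0.2) and 0.01 in PFc (SE 0.126). In VTA DESeq2 called Cd93 higher (0.86, adjusted p = 0.0147), a surface protein of endothelial cells, where edgeR gave an adjusted p of 0.356. In SN it called the complement gene C3 lower (−1.51, adjusted p = 0.00808), where edgeR gave an adjusted p of 0.137.

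Markers of other cells and of RNA composition moved with the same libraries. The 76 cytosolic ribosomal protein genes all had higher KI means in HP and PFc, with a median log2 fold change of 0.65 in each. DESeq2 called 39 of them in HP and 26 in PFc, where it called 1.75% and 1.68% of all genes higher. Astrocyte genes had higher KI means for 14 of 14 in both regions (medians 0.37 and 0.43; 2 and 6 called by DESeq2) and endothelial and pericyte genes for 18 of 18 (0.49 and 0.35; 0 and 1 called). Oligodendrocyte genes had higher means for 15 of 15 in HP (0.88; 9 called) and 12 of 15 in PFc (0.30; 0 called), but for 1 of 15 in PFc without KI PFc 1 (−0.67). Neuronal genes were lower for 12 of 15 in HP (−0.28) and 9 of 15 in PFc (−0.07).

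Border macrophages, which line vessels and meninges and share several of the 10 genes, were looked for with 11 markers. Their summed level was 10.3 to 15.4 CPM in WT HP and 13.2 to 27.8 CPM in KI HP, and 13.96 to 20.2 CPM in WT PFc and 20.6 to 34.5 CPM in KI PFc, against 269.5 to 358.5 and 360.1 to 520.4 CPM for the 10 microglial genes in WT HP and WT PFc. Of the 11, 4 were tested in HP and all 4 had higher KI means (median 0.87), and 5 of 5 in PFc (median 0.98); edgeR and DESeq2 called 0. Without KI HP 2 the HP median was 0.40. Without KI PFc 1 the PFc median was 1.34, with 3 of 7 tested called by edgeR (3.48% of all genes higher). Over the 36 libraries Stab1 had the highest median level of the 11, 12.6 CPM, ahead of Mrc1 at 2.34 CPM, so the summed level mainly follows Stab1. The median was under 1 CPM for 8 of the 11, and Cd209f, Ccl24 and Clec10a were listed at 0 in 5, 4 and 1 libraries. Of 14 markers of blood and other immune cells, the T-cell genes Cd3e and Cd3d were at 0 in 24 and 25 libraries, while the 4 haemoglobin genes had counts in all 36; the list summed to 147.4 to 184.4 CPM in WT HP and 181.6 to 381.9 CPM in KI HP, and to 200.5 to 265.4 CPM in WT PFc and 277.3 to 316.0 CPM in KI PFc. The part of these cells, of the ribosomal protein genes and of the lower KI totals in the microglial differences was not tested.

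**Figure D5:**
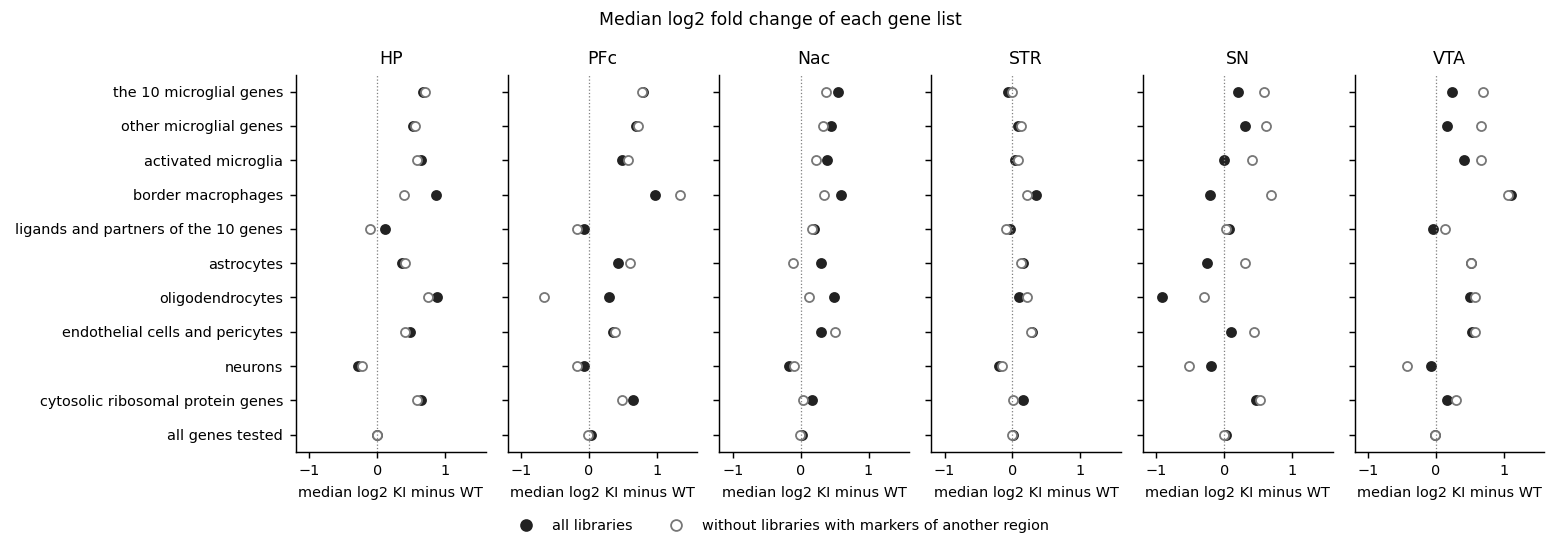
Median log2 fold change, KI minus WT, of each gene list by region, over the members tested; filled points use all libraries and open points leave out libraries with markers of another region (in PFc, KI PFc 1). The 10 microglial genes and the 36 other microglial genes lie together in each region, at 0.67 and 0.53 in HP and at 0.79 and 0.69 in PFc, with the ribosomal protein genes at 0.65 in both.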

How the data were processed

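Brain tissue of 18 WT and 18 KI libraries, 3 per genotype and region, was prepared with a SMARTER mRNA-seq kit, per the labels' protocols, and the genome build was GRCm38.p6, per the submitters' processing notes. Aligner, counter and strandedness: not given in the sources used here, so reads shared by overlapping genes could be divided in unknown ways. The deposited tables give estimated counts for genes and transcripts (9.9% of gene values were not whole), rounded here before testing, and TPM values, used to compare genes. Per the file headers, the authors' deposited comparisons hold log2 fold changes and q-values from DESeq2. A further 180 per-sample columns were not used here.

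CPM were scaled by TMM over all 36 libraries. After filterByExpr, edgeR 4.0.16 (quasi-likelihood) tested every gene that passed, p-values were adjusted over all of them by Benjamini-Hochberg and the threshold was 0.05; intervals are 95%. DESeq2 1.42.0, limma 3.58.1 and the settings in the closing section were alternatives; R was 4.3.3, and figures used Python 3.11.15 and matplotlib 3.10.9. The functions were also run on simulated counts with set fold changes, whose outcome is not given here. The simulation held no libraries with markers of another region. Depth was 15145623 to 18863508 counts per library. The libraries with markers of another region were those whose own region list (Nac and STR share one, as do SN and VTA) lay below the midpoint of the medians of libraries of that region and of the others.

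The 10 genes, the other lists and the rules were chosen with earlier results of these data known. From each other list the text names up to 3 called genes per comparison with the largest change, or else the 2 most abundant; genes named by their level, by their zeros or among the border macrophage and T-cell markers were added after the values were seen. The fit over 28 libraries and DESeq2 without libraries with other markers were added after the data were seen. The genes most like the 10 are those with the highest Pearson r with their mean standardised log2 CPM; 1 of them is not reported here.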

Additional observations from a re-analysis of the deposited data

How the results depend on the processing

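No alternative reversed a member in HP, PFc or the sums over regions, and their edgeR calls depended on the tool and on single libraries. DESeq2 called 3 of the 10 genes and 259 of all genes in HP, 8 and 362 in PFc, 6 and 1356 in the sums, and genes in all numbering 2 (Nac), 210 (STR), 990 (SN) and 185 (VTA), 33 in all for genotype by region, and 3 and 4273 for regions among KI. Without the libraries with markers of another region (in PFc, KI PFc 1) edgeR called 2 and 85 in HP, 7 and 717 in PFc, 1 gene in all in SN, 7 and 1102 in VTA, 11 in all in the sums, 8 in all for genotype by region, 5 and 10674 among WT regions, and 6 and 7766 among KI regions. DESeq2 without them, added after the data were seen, called 7 and 860 in HP, 9 and 1470 in PFc, 1 and 81 in Nac, 215 in all in STR, 206 in SN, and 9 and 1798 in VTA. With library totals alone edgeR called 3 genes in all in the sums, 2 members and 7508 genes among WT regions and 0 and 2111 among KI regions; with no filter it called 107 in the sums. Without region Nac it called 11 genes in all in the sums, and without region STR 1 member and 106. Region and genotype as terms called 5 and 1452 over 36 libraries, 10 and 2614 over 28, and 6 and 1409 with limma's voom.

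Leaving out each library in turn gave 0 to 2 members and 0 to 85 genes called in HP, 0 to 7 and 0 to 717 in PFc, 0 and 0 for Nac, 0 and 0 to 2 for STR, 0 and 0 to 361 for SN (361 without KI SN 3), and 0 to 7 and 0 to 1102 for VTA. Leaving out each sum gave 0 and 0 to 10. Leaving out each title number, with all its libraries, gave 0 and 0 to 1 for genotype by region, 0 and 2162 to 5844 among WT regions (7243 with all), and 0 and 8 to 1967 among KI regions (1 and 1887 with all). The median log2 fold change of the 10 ran over these from 0.53 to 0.75 in HP, 0.69 to 0.99 in PFc, 0.29 to 0.45 in the sums, 0.26 to 0.79 for Nac, −0.13 to 0.11 for STR, −0.02 to 0.44 for SN and 0.02 to 0.69 for VTA.

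Reversed log2 fold changes without the libraries with other markers, by edgeR and DESeq2, were Tyrobp in Nac at −0.169 and −0.164, Csf1r in STR at 0.095 and 0.091, Tyrobp in STR at −0.041 and −0.045, P2ry12 in STR at 0.025 and 0.021, C1qb in SN at 0.405 and 0.402 and Tmem119 in VTA at 0.391 and 0.395. Tyrobp in STR was also −0.004 by DESeq2, 0 with size factors and −0.003 with no filter, and library totals alone gave −0.013 for C1qa and −0.059 for Tmem119 in SN. With a library left out, the ranges that crossed 0 were, in STR, C1qa −0.183 to 0.051, C1qb −0.152 to 0.098, C1qc −0.182 to 0.063, Csf1r −0.228 to 0.095, P2ry12 −0.269 to 0.119, Trem2 −0.053 to 0.321 and Tyrobp −0.128 to 0.274. In SN they were C1qa −0.164 to 0.339, C1qb −0.293 to 0.289, C1qc −0.085 to 0.402, Tmem119 −0.104 to 0.201 and Tyrobp −0.147 to 0.367. In VTA they were Csf1r −0.287 to 0.681, Cx3cr1 −0.268 to 0.692, P2ry12 −0.108 to 0.618 and Tmem119 −0.418 to 0.391, and in Nac Tyrobp −0.023 to 0.694. Beyond the samples and genes each setting left out, the cause was not tested.

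The labels do not say what libraries of the same title number share. Deviations of the WT and the KI library of the same number and region correlated at −0.547 to 0.56, with 2 of 18 pairs over 0.1. These pairs do not compare libraries of different regions, so they cannot tell whether libraries of 1 genotype share an animal. With the replicate block 54 genes were called in SN, and 0 members and 1594 genes among KI regions. The lowest count of a member in any library was 60, and each group has 3 libraries.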
